A study of Rattus norvegicus with 56 samples.

Results

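The miR-183, miR-96 and miR-182 cluster comprised 3 of the 367 mature miRNAs counted in 56 small RNA libraries from rat hippocampus, namely rno-miR-183-5p, rno-miR-96-5p and rno-miR-182. The members were chosen by measured values, since their levels differed widely between libraries, so their spread and their rise and fall together are given as a description without a test. The 3 miRNAs are cut from neighbouring hairpins and are known for high levels in sensory cells such as photoreceptors, cochlear hair cells and dorsal root ganglion neurons. The pineal gland and some epithelia are also known to carry them, while the adult hippocampus is not known as a main site of expression. A miRNA guides a silencing complex to messenger RNAs through its seed, and sets of miRNAs from a shared transcript often rise and fall together.

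The study asked how traumatic brain injury (TBI) changes hippocampal miRNAs up to a year after injury. Rats received fluid percussion injury, in which a fluid pulse strikes the exposed dura, or a sham operation, and the hippocampus was taken 24 h, 2 w, 1 m, 2 m, 3 m, 6 m or 12 m later, an interval that the labels call 1 year. Each of the 14 groups held 4 rats, so that 28 TBI and 28 sham rats were sequenced, 1 library per rat. Interval, age of the rat and date of handling cannot be told apart, and the strain and age of the rats were not given in the sources used here. In bulk tissue, fewer cells of a type and less RNA per cell cannot be told apart.

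The mature sequences of the 3 members are shown because they show how alike the members are, in the seed that sets their targets and over their whole length. They were taken from RefSeq on build GRCr8, run 5′ to 3′, and have the seed (bases 2 to 8) in capitals.
rno-miR-183-5p: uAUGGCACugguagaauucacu
rno-miR-96-5p: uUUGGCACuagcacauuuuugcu
rno-miR-182: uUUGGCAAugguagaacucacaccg

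Each member had a seed of its own, which no other of the 724 mature rat miRNAs in the RefSeq table shared. The seeds of miR-183-5p and miR-96-5p were the same at 6 positions and differed by A2U, counted from the 5′ end with the base of miR-183-5p first. The seeds of miR-96-5p and miR-182 also matched at 6 positions and differed by C8A. Over their whole length miR-183-5p and miR-182 were the closest pair, identical at 18 of 22 aligned positions, with A2U and C8A in the seed and U17C and U22A beyond it. miR-96-5p was identical to miR-183-5p at 13 of 22 positions and to miR-182 at 12 of 23. All 3 genes lie on the minus strand of chromosome 4 between the protein-coding genes Nrf1 and Ube2h, with no protein-coding gene among them. The mature miR-183-5p lies at chr4:59756106-59756127, miR-96-5p at chr4:59755901-59755923 and miR-182 at chr4:59752249-59752273. The hairpins of Mir183 and Mir96 are separated by 97 bases, and those of Mir96 and Mir182 by 3533 bases. Mir3553 also lies within the stretch from Mir182 to Mir183 and was not analysed here.

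The total count of 55 libraries ranged from 2083604 to 12468979 (median 5333993). The library of rat X747 (TBI 2 m) held 69628 counts, with 1 count of miR-183-5p, 0 of miR-96-5p and 3 of miR-182, and the 0 allowed a level of up to 34.4 CPM (3 counts per library, counting error only). That library was kept in the tests and in the group medians and ranges, and was left out of the spread, the correlations and the ratios over 55 libraries. Levels are CPM, the count divided by the library total, adjusted by the TMM factor of the library and set to a common size. Neuronal miRNAs filled a large part of every library, with a summed level of 148577 to 355365 CPM over the 8 miRNAs of the neuron list.

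Levels of the 3 miRNAs were low in most libraries and high in a few. Over the 55 libraries, miR-183-5p ran from 4.45 to 579 CPM with a median of 18.9, a 130-fold range. For miR-96-5p the lowest level was 0.929 CPM, the median 3.75 and the highest 124, a 133-fold range. The corresponding values for miR-182 were 8.68, 20.9 and 499 CPM, a 57.5-fold range. The raw counts behind these values were 16 to 3119, 4 to 666 and 28 to 2685. The standard deviation (SD) of log2 CPM was 1.45 for miR-183-5p, 1.32 for miR-96-5p and 1.31 for miR-182, against a median of 0.316 over the 244 miRNAs that passed the filter on low counts. The members held ranks 2, 3 and 4 by this measure. Rank 1 belonged to miR-6215, which was named after its values were seen and had an SD that also rounds to 1.45. The next miRNA by rank, miR-293-5p, named on the same basis, had an SD of 1.07. Counting error alone corresponded to an SD of 0.159 for miR-183-5p, 0.369 for miR-96-5p and 0.140 for miR-182. Within the 14 groups, where neither treatment nor interval varied, the SD was 1.35, 1.19 and 1.16.

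**Figure D1:**
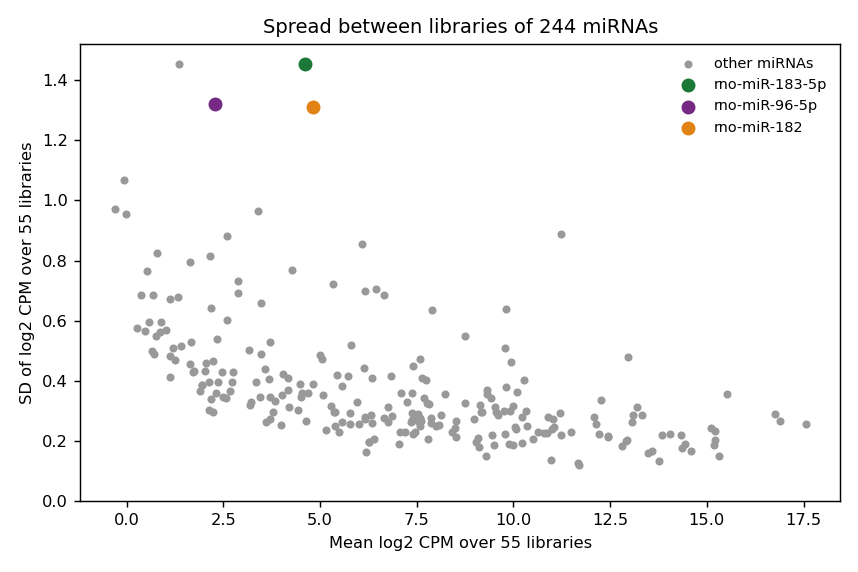
Standard deviation of log2 CPM over 55 libraries (vertical axis) against mean log2 CPM (horizontal axis) for 244 miRNAs, 1 point per miRNA. The 3 coloured members lie at 1.31 to 1.45, above all grey points but 1, while the median miRNA had an SD of 0.316.

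The same few rats were high for all 3 members, in both treatments. Rat X83 (TBI 12 m) had the highest level of each, with 579 CPM of miR-183-5p, 124 of miR-96-5p and 499 of miR-182. Rat tube.18 (sham 2 w) followed with 292, 58.3 and 266 CPM, and rat X78A (sham 3 m) with 229, 41.1 and 203.9 CPM. Rat X62 (TBI 3 m) had 174, 21.1 and 129 CPM. The 10 highest libraries of each member had 7 rats in common, of which 4 were sham and 3 TBI. The 4 highest libraries held 48.5% of the summed miR-183-5p CPM of all 55. A level over 3 times the median was reached in 9 libraries for miR-183-5p (6 sham, 3 TBI), 7 for miR-96-5p (4 sham, 3 TBI) and 10 for miR-182 (6 sham, 4 TBI).

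The spread was not alike at all intervals. At 2 m the 7 libraries held miR-183-5p between 10.9 and 18.9 CPM, a 1.74-fold range, and miR-96-5p between 2.41 and 4.25 CPM. At 1 m the range of miR-183-5p was 8.12-fold, from 8.26 to 67.1 CPM. At 12 m it was 55.0-fold, from 10.5 to 579 CPM, set at its upper end by rat X83. In the order of the group medians, miR-183-5p was highest in sham 2 w (73.1 CPM) and sham 3 m (49.8 CPM) and lowest in TBI 24 h (10.99 CPM) and sham 6 m (8.80 CPM). The median of miR-96-5p ran from 10.8 CPM in sham 3 m to 1.498 CPM in sham 6 m, and that of miR-182 from 120 CPM in sham 3 m to 13.7 CPM in sham 6 m. For each member, all 13 of the 13 pairs of neighbours in this order overlapped in their ranges.

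**Figure D2:**
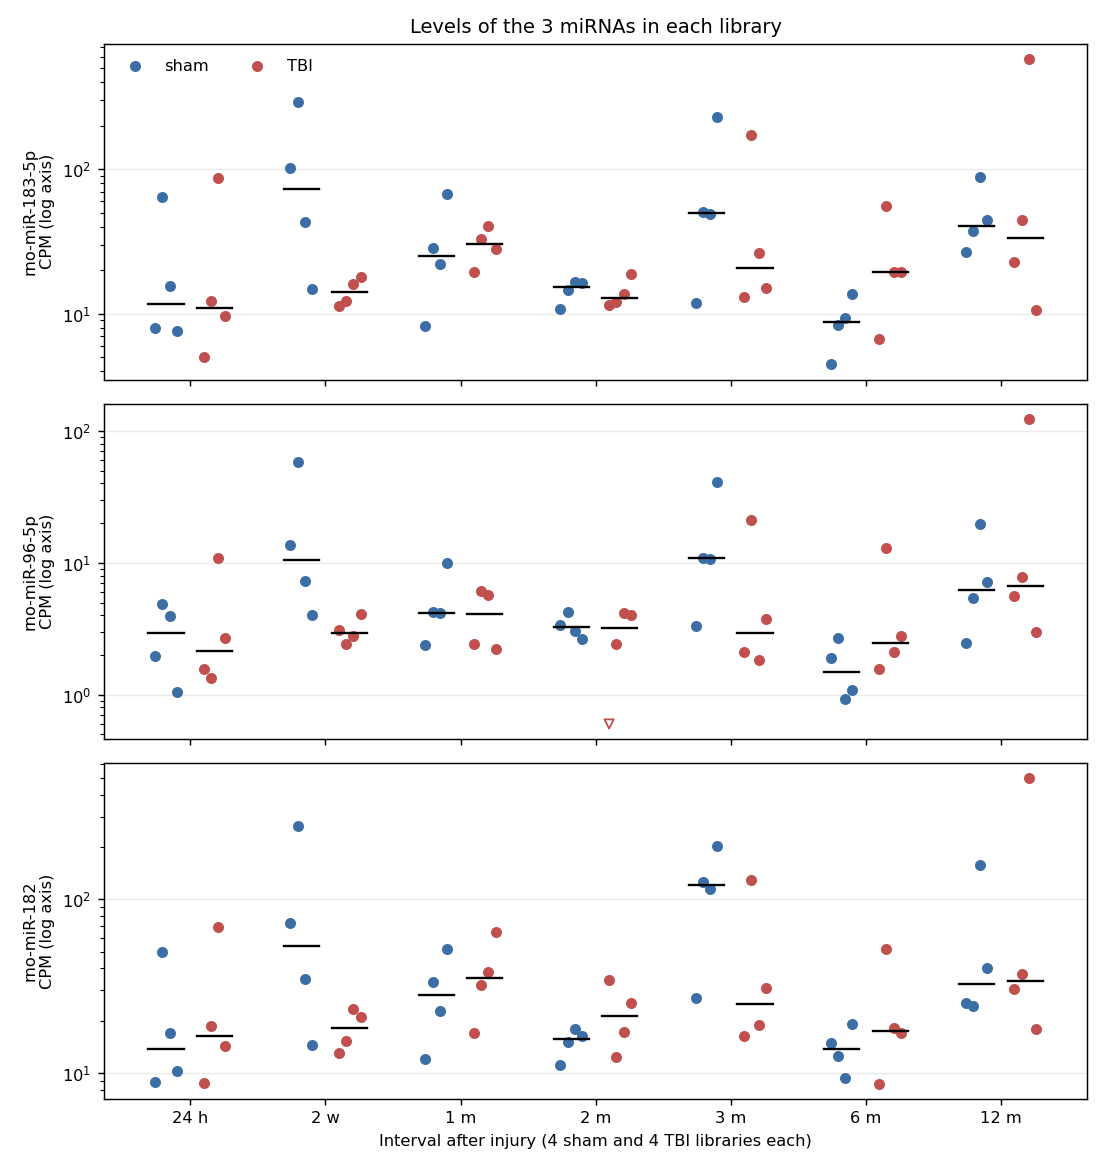
CPM of each member (log axis) in every library, by interval and treatment, with 4 points per group and a black line at the group median. The open triangle marks the shallow library with 0 counts of miR-96-5p. At 24 h, 2 w, 3 m and 12 m the highest point of the interval comes from the same rat in all 3 panels.

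The 3 miRNAs rose and fell together between rats. After the mean of each of the 14 groups was taken out, the deviations of miR-183-5p and miR-182 had a Pearson r of 0.94 and a Spearman rho of 0.90 over 55 libraries. For miR-183-5p and miR-96-5p r was 0.90 and rho 0.80, and for miR-96-5p and miR-182 r was 0.90 and rho 0.81. These points share the library and its depth, and no p is given because the members were chosen by their spread. Without the 2 libraries farthest from the median, r was 0.92, 0.87 and 0.86 in the same order. Within the 28 sham libraries r was 0.92, 0.86 and 0.89, and within the 27 TBI libraries 0.95, 0.93 and 0.91. At 2 m, where all levels lay close together, r of miR-183-5p and miR-182 was 0.96 over 7 libraries, and at the other intervals it was 0.82 to 0.996 over 8. The correlations of miR-96-5p varied more, with r from 0.19 (2 m) and 0.63 (6 m) to 0.98 (12 m) for miR-183-5p, and from 0.40 (2 m) and 0.51 (1 m) to 0.98 (12 m) for miR-182.

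No other miRNA that passed the filter on low counts moved with the cluster to this degree. The scarce miR-200a-5p, which did not pass it, is described further below. Over the other 241 miRNAs that passed the filter, rho of the deviations with miR-183-5p ran from -0.50 to 0.46 with a median of -0.02. The most alike were miR-211-5p (rho 0.46), an intronic miRNA abundant in the choroid plexus, miR-423-5p (0.42) and miR-224-5p (0.41). The same 3 miRNAs came next for miR-182, with rho 0.59, 0.46 and 0.44. For miR-96-5p they were miR-199a-5p (0.50), miR-450a-5p (0.45) and miR-211-5p (0.40).

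**Figure D3:**
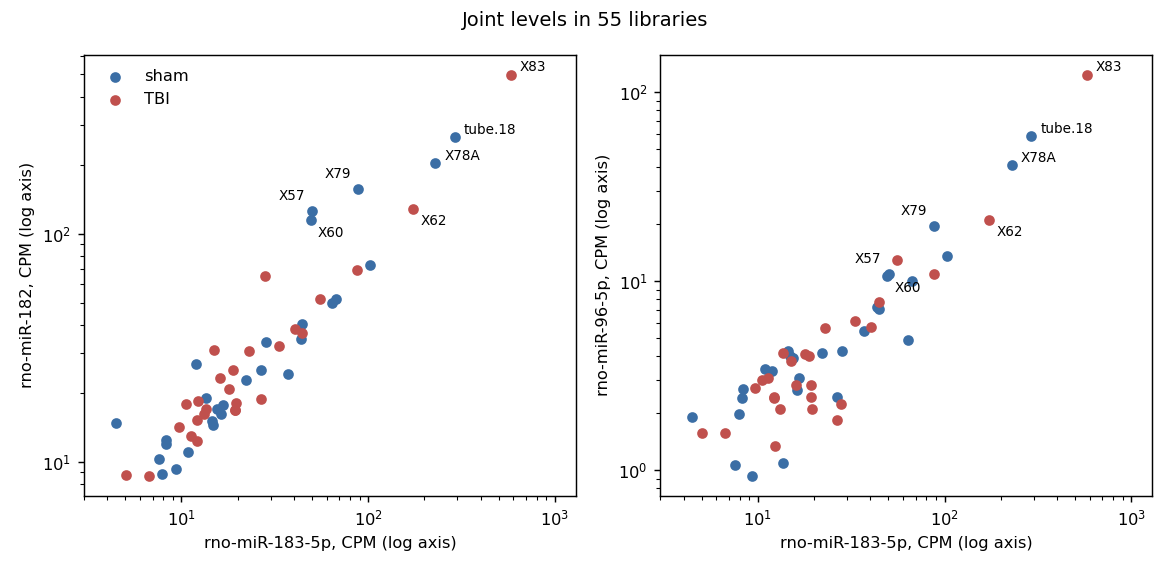
miR-182 (left) and miR-96-5p (right) against miR-183-5p in CPM on log axes, 1 point per library (55 libraries, sham blue, TBI red), with 7 rats named. The points lie along a band in both panels, rats X57, X60 and X79 lie above the band on the left, and the scatter on the right is wider at low levels.

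The ratio of the members was narrower than their levels but not fixed. Ratios were taken within a library from raw counts, so they do not depend on its scaling, and they are ratios of reads, since ligation of adapters favours some small RNAs over others. The ratio of miR-183-5p to miR-182 ran from 0.30 to 1.53 with a median of 0.936. The ratio of miR-96-5p to miR-182 ran from 0.0341 to 0.309 (median 0.172), and that of miR-96-5p to miR-183-5p from 0.0696 to 0.429 (median 0.187). On the log2 scale the SD of the ratio of miR-183-5p to miR-182 was 0.512, against 0.212 from counting error. The other ratios had an SD of 0.579 and 0.587, against 0.394 and 0.402 from counting error, so counting error made up a larger part of them. In the 3 highest libraries the ratio of miR-183-5p to miR-182 was 1.16, 1.10 and 1.12, and that of miR-96-5p to miR-182 was 0.248, 0.220 and 0.202.

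The 3 libraries that stood apart in choroid plexus miRNAs had more miR-182 for their miR-183-5p than most, while those next in miR-204-5p had both high and low ratios. The choroid plexus lines the ventricle beside the hippocampus, and miR-204-5p is its best known abundant miRNA. Rats X57 (sham 3 m), X79 (sham 12 m) and X60 (sham 3 m) stood apart with 20336, 18890 and 17934 CPM of miR-204-5p, while the next library had 5009 and the median was 2183 CPM. Their ratios of miR-183-5p to miR-182 were 0.399, 0.558 and 0.430. The next 2 rats by miR-204-5p, X461 (sham 24 h) and X795 (sham 1 m, 4322 CPM), had ratios of 1.28 and 1.29. Over all 55 libraries r of this log2 ratio with log2 miR-204-5p was -0.29 (rho 0.01), and without the 3 it was 0.12 (rho 0.19). In the other 52 libraries that ratio had a median of 0.968, and 4 of the 52 were at or under 0.558. The ratio of miR-96-5p to miR-182 in the same 3 rats was 0.0869 to 0.124, a range at or under which 12 of the other 52 libraries also lay. Their miR-182 level was 115 to 158 CPM. Across all 55 libraries r of log2 miR-182 with log2 miR-204-5p was 0.54 (rho 0.50), and 0.39 (rho 0.42) without those 3. The corresponding r for miR-183-5p was 0.39 (rho 0.44), and 0.37 (rho 0.36) without them. These are correlations of levels. For deviations from the group means over 55 libraries, rho with miR-204-5p was 0.42 for miR-182 and 0.30 for miR-183-5p. Rats X79, X57 and X60 ranked 4, 6 and 7 of 55 by miR-182, and X79 was among the 7 rats high in all 3 members. The highest rat of the cluster, X83, had 1640 CPM of miR-204-5p, and the next, tube.18, had 2478. How far cells of the choroid plexus set the ratio was not tested. The 4 other libraries at or under 0.558 were tube.53 (sham 6 m, 0.30), X769 (TBI 1 m, 0.428), X48 (sham 3 m, 0.443) and X95 (TBI 3 m, 0.486). They had 1554, 4271, 2545 and 4029 CPM of miR-204-5p, so that X769 and X95 ranked 6 and 8 by miR-204-5p.

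Libraries with high levels of the cluster differed in how much miR-200a-5p, a miRNA of epithelial and neuroendocrine cells, they held. miR-200a-5p was too scarce to pass the filter and had a median of 1 count per library, with 0 counts in 18 of 55 libraries and more than 10 in 3. Those 3 libraries were tube.18 (sham 2 w, 69 counts), tube.17 (sham 2 w, 24 counts) and X460 (TBI 24 h, 16 counts), each among the 7 rats that were high in all 3 members. Rat X83 had 4 counts of miR-200a-5p beside 3119 of miR-183-5p, rat X78A 1 beside 1485, and rat X62 1 beside 445. As a share of both counts, miR-200a-5p made up 3.37% in rat tube.18 (exact 95% binomial interval 2.63 to 4.25%), 2.93% in tube.17 (1.89 to 4.33%) and 3.17% in X460 (1.82 to 5.09%). The share was 0.128% in rat X83 (0.0349 to 0.328%) and 0.0673% in X78A (0.00170 to 0.374%), so these intervals did not meet those of the first 3 rats. For rat X62, with fewer counts, the share was 0.224% (0.00568 to 1.24%). Rat X79, also among the 7 high rats, lay between, with 5 counts beside 589 and a share of 0.842% (0.274 to 1.95%). Its interval met those of tube.17 and X460 as well as those of X83, X78A and X62, but not that of tube.18. Among the 16 libraries with at least 200 counts of miR-183-5p the share ran from 0.0673% to 3.94%, with 4 libraries under 0.5% and 6 at 2.5% or more. These intervals cover counting error only. Over 55 libraries rho of the deviations of miR-200a-5p was 0.68 with miR-183-5p, 0.58 with miR-96-5p and 0.63 with miR-182. The related miR-200b-5p reached 26 counts in rat tube.18 and had a median of 0. Its rho was lower, at 0.29, 0.30 and 0.25 with the members in the same order. For miR-141-5p, from the same marker list and with at most 3 counts in a library, rho was 0.07, -0.01 and 0.10. The other arms of these miRNAs were not examined.

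**Figure D4:**
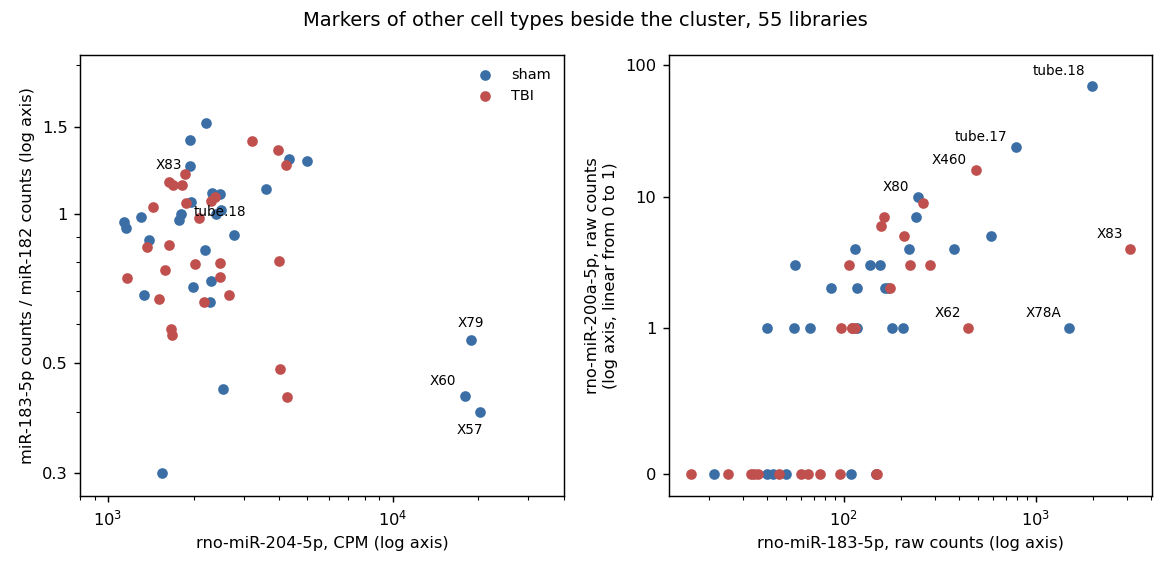
Left, ratio of miR-183-5p to miR-182 counts against miR-204-5p CPM, both on log axes. Right, raw counts of miR-200a-5p against those of miR-183-5p (log axes, vertical axis linear from 0 to 1), with 1 point per library (55 libraries, sham blue, TBI red). Rats X57, X60 and X79 lie apart on the left with ratios of 0.399 to 0.558, and on the right X83 and X78A hold 4 and 1 counts of miR-200a-5p where tube.18 holds 69.

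The summed levels of most other lists of cell type markers had low correlations with the cluster. Each rho here is of deviations from the means of the 14 groups over 55 libraries. The summed miRNAs of neurons had a rho with the 3 members between -0.05 and -0.002, of oligodendrocytes between 0.12 and 0.24, of vessel walls between 0.03 and 0.18, and of red blood cells between 0.19 and 0.26. The neuron sum was mostly miR-9a-5p, and single miRNAs of that list differed. Their rho ran from -0.32 (miR-137-5p with miR-96-5p) to 0.37 (miR-128-2-5p with miR-182, at a median of 0.341 CPM). For miR-218a-5p rho was -0.30, -0.20 and -0.29 with miR-183-5p, miR-96-5p and miR-182. For leukocytes and microglia rho was 0.01 to 0.08, a sum that was mostly miR-150-5p, while miR-155-5p of that list alone had a rho of 0.35, 0.34 and 0.40 at a median of 8.89 CPM. For muscle rho was -0.16 to -0.06, a sum that was nearly all miR-499-5p. On that list miR-1-5p, miR-133b-5p and miR-208a-5p had 0 counts in each of the 55 libraries. The summed level of the leukocyte and microglia list was 821 to 2396 CPM, that of red blood cells 36.0 to 340 CPM, that of vessel walls 697 to 2077 CPM, that of oligodendrocytes 1482 to 3317 CPM and that of muscle 299 to 1050 CPM. The Hox cluster miRNAs of hindbrain and spinal cord, chiefly miR-10a-5p and miR-10b-5p, had a rho of 0.39 with miR-183-5p, 0.38 with miR-96-5p and 0.43 with miR-182, at summed levels of 8.19 to 117 CPM. The whole choroid plexus list gave 0.31, 0.18 and 0.43, at 1171 to 20842 CPM. The epithelial and neuroendocrine list gave 0.06, 0.11 and 0.21, and its summed level of 28723 to 83113 CPM was nearly all miR-7a-5p and miR-7b. Its miR-200c-5p and miR-375-5p had 0 counts in every library. Each list miRNA was read from the row of its bare name or its 5p arm. These values therefore do not cover the other arm of its hairpin, and a low or absent count does not show that a cell type was absent. How far any of these cell types set the levels of the cluster was not tested.

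TBI and sham rats were then compared at each interval to learn whether the cluster followed the injury. No member passed an adjusted p of 0.05 at any interval in the quasi-likelihood test of edgeR, adjusted by Benjamini-Hochberg over every miRNA tested. Across those miRNAs, 4 of 233 (1.72%) were called at 24 h and 1 of 240 (0.417%) at 1 m, while 0 (0%) were called at each other interval. At the 5 intervals without a call, taken in order of time, an unadjusted p under 0.05 was reached by 21, 17, 12, 11 and 22 miRNAs. The likelihood ratio test of edgeR called 8, 2, 0, 0 and 0 miRNAs there, and the Wald test of DESeq2 7, 1, 1, 0 and 0.

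At 2 w the members came closest to a difference. miR-183-5p was 103, 43.4, 292 and 14.8 CPM in the 4 sham rats and 11.3, 18.0, 12.2 and 16.04 CPM in the 4 TBI rats. Of the sham rats, 3 lay above all TBI rats, and the lowest lay within the TBI range. The log2 fold change of TBI over sham was -2.98 (SE 0.77, adjusted p = 0.148). miR-96-5p was 13.6, 7.28, 58.3 and 4.03 CPM in sham and 3.07, 4.12, 2.44 and 2.81 CPM in TBI rats, with a log2 fold change of -2.76 (SE 0.78, adjusted p = 0.184). miR-182 was 72.8, 34.7, 266 and 14.5 CPM in sham and 12.97, 20.9, 15.3 and 23.3 CPM in TBI rats, with a log2 fold change of -2.42 (SE 0.76, adjusted p = 0.225). The levels of the TBI rats lay close together, and the wide range was that of the sham rats. The call depended on the test, because the likelihood ratio test of edgeR gave an adjusted p of 0.00330 for miR-183-5p, 0.00929 for miR-96-5p and 0.0288 for miR-182, and over all alternatives the adjusted p ran from 0.00330 to 0.392, from 0.00929 to 0.480 and from 0.0288 to 0.530. The Wald test of DESeq2 gave 0.0165, 0.0387 and 0.0999. Of the 227 miRNAs that passed the filter at 2 w, the likelihood ratio test called 8 and the Wald test 7. The two-sided exact permutation test of mean log2 CPM (4 against 4 rats) had p-values of 0.0857, 0.0571 and 0.114, where 0.0286 is the smallest that 4 against 4 allows, and adjusted over 21 comparisons each was 0.60. Without rat tube.18 the log2 fold changes were -1.89, -1.44 and -1.15 (adjusted p = 0.163, 0.163 and 0.327 in edgeR's quasi-likelihood test).

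At 12 m and 3 m single rats set the size of the difference. At 12 m miR-183-5p was 37.2, 26.7, 88.1 and 44.4 CPM in sham and 22.9, 44.5, 579 and 10.5 CPM in TBI rats. The TBI rats held both the highest and the lowest level. The log2 fold changes at 12 m were 1.70 (SE 1.12), 1.95 (SE 1.17) and 1.20 (SE 1.10) for miR-183-5p, miR-96-5p and miR-182, with adjusted p-values of 0.491, 0.469 and 0.619. Without rat X83 they were -0.95, -0.73 and -1.15. Without the sham rat X79, which was high in miR-204-5p, they were 2.15, 2.75 and 2.25 (adjusted p = 0.410, 0.383 and 0.383), a comparison added after the data were seen.

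At 3 m miR-182 was 203.9, 26.9, 126 and 115 CPM in sham and 16.3, 30.9, 129 and 18.9 CPM in TBI rats. Of the sham rats, 3 were above 114 CPM and of the TBI rats 1, rat X62. The log2 fold changes at 3 m were -0.57 (SE 0.97), -1.23 (SE 0.87) and -1.26 (SE 0.72), with adjusted p-values of 0.889, 0.618 and 0.554. Without rat X62 they were -2.11, -2.68 and -2.35 (adjusted p = 0.467, 0.394 and 0.394), and without the sham rat X78A that of miR-183-5p was 0.62. The sham rats X57 and X60, which were high in miR-204-5p, gave 2 of the 3 high sham values of miR-182. Without both, again after the data were seen, the changes were -1.09, -1.68 and -1.26 (adjusted p = 0.979 for each).

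The other intervals showed small or uneven differences. At 6 m miR-183-5p was 4.45, 13.6, 8.31 and 9.29 CPM in sham and 6.70, 19.3, 55.4 and 19.6 CPM in TBI rats. There, 3 TBI rats lay above all sham rats and 1 lay within their range. The log2 fold change was 1.43 (SE 0.53, adjusted p = 0.746), and 0.78 without rat tube.58. miR-182 had a log2 fold change of 0.71 (SE 0.44, adjusted p = 0.961), and miR-96-5p, at 0.929 to 12.9 CPM, did not pass the filter at 6 m. At 24 h the changes were 0.33 (SE 0.92), 0.65 (SE 0.68) and 0.41 (SE 0.70) with an adjusted p of 0.981 each, and without rat X460 they were -1.31, -0.40 and -0.57. At 1 m the log2 fold changes of miR-96-5p and miR-182 were -0.24 (SE 0.44) and 0.42 (SE 0.44), and that of miR-183-5p was 0.01 (SE 0.47). At 2 m the log2 fold changes were -0.00092 (SE 0.26), 0.04 (SE 0.30) and 0.32 (SE 0.30) for miR-183-5p, miR-96-5p and miR-182, with adjusted p-values of 0.9996, 0.993 and 0.835. The plain difference of mean log2 CPM for miR-96-5p at 2 m was -0.81, or 0.055 without the shallow library of rat X747. For no member and at no interval did the 4 TBI rats all lie on one side of the 4 sham rats.

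**Figure D5:**
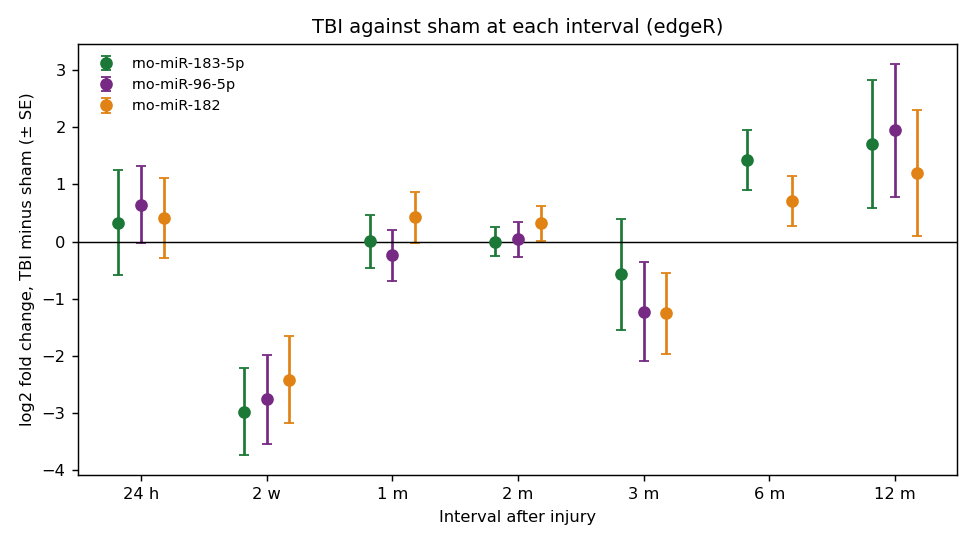
log2 fold change of TBI over sham (vertical axis, ± SE from edgeR) at each interval for the 3 members, each from 4 TBI and 4 sham libraries. The values run from -2.98 at 2 w to 1.95 at 12 m, none passed an adjusted p of 0.05 in the quasi-likelihood test, and miR-96-5p has no point at 6 m because it did not pass the filter.

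Over all intervals together no shift of the cluster with injury was detected. With interval as a covariate and all 56 libraries, the log2 fold change was 0.04 (SE 0.41) for miR-183-5p, -0.06 (SE 0.40) for miR-96-5p and -0.06 (SE 0.35) for miR-182, each with an adjusted p of 0.977 (edgeR quasi-likelihood test). The sign of such small values turned for miR-183-5p and miR-182 without the 3 rats high in miR-204-5p (-0.01 and 0.06), and without rat X83 all 3 were lower (-0.37, -0.53 and -0.42). In the same fit 11 of 244 miRNAs (4.51%) were called. Among the marker lists this fit called 3 of 4 miRNAs of leukocytes and microglia, all higher in TBI, and 0 of the tested miRNAs of the other lists. Whether the injury effect differed between intervals was tested with 6 interaction terms, which gave adjusted p-values of 0.314, 0.143 and 0.334 for miR-183-5p, miR-96-5p and miR-182, while 7 of 244 miRNAs (2.87%) were called. The interval effect had adjusted p-values of 0.00245, 0.000525 and 0.000610 for the members, and 136 of 244 miRNAs (55.7%) were called. The spread over libraries that chose the members includes the spread over intervals, so nothing is read from these values. The median level of miR-183-5p over the libraries of an interval was lowest at 24 h (10.99 CPM) and 6 m (11.4 CPM) and highest at 12 m (40.8 CPM) and 3 m (37.9 CPM).

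The ratio of the members was compared between TBI and sham rats in the same way. At 2 w the ratio of miR-183-5p to miR-182 was 1.41, 1.25, 1.10 and 1.02 in sham rats and 0.868, 0.858, 0.798 and 0.688 in TBI rats. All 4 TBI rats lay below all 4 sham rats. The mean log2 ratio was 0.25 in sham and -0.32 in TBI rats, a difference of -0.57 for which the exact permutation test (two-sided) gave p = 0.0286, the smallest p that 4 against 4 allows, and 0.450 after adjustment over 21 comparisons. At 3 m the difference was the widest, with a mean log2 ratio of -0.10 in TBI and -0.88 in sham rats, but the groups overlapped (exact permutation p = 0.171, adjusted 0.514). The sham ratios there were 0.399 and 0.430 in rats X57 and X60, both high in miR-204-5p, 0.443 in X48 and 1.125 in X78A. At 6 m TBI was also the higher group, with a mean log2 ratio of 0.01 in TBI and -0.69 in sham rats (exact permutation p = 0.0571, adjusted 0.450) and overlapping groups. Over all intervals the mean differences of the log2 ratios were -0.02, -0.03 and -0.01 for miR-183-5p to miR-182, miR-96-5p to miR-182 and miR-96-5p to miR-183-5p. A permutation test within intervals with 100000 draws gave p = 0.896, 0.8288 and 0.930.

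The titles of the libraries carry an S number that pairs of libraries of an interval share, and the sources used here do not say what a shared number stands for. The 55 libraries held 27 such pairs, and in 2 of them both rats were among the 7 high in all 3 members. These were tube.17 and tube.18 (sham 2 w), which share S5, and X79 and X83 (sham and TBI 12 m), which share S19. In the other 3 pairs with a high rat, the partner was lower, as for X78A at 229 and X60 at 49.3 CPM of miR-183-5p. The part of the shared numbers in these levels was not tested.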

How the data were processed

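Small RNA of 56 rat hippocampi was made into NEBNext libraries and read on a NextSeq550. The authors removed adapters and quantified mature miRNAs of miRBase with miRDeep2, and the submitters' processing notes also name bcl2fastq 2.20.0.422. How reads that match several miRNAs were divided, and the genome build, are not given in the sources used here. The deposited values are raw counts, and 0 columns were left out. Each interval was tested on its own 8 libraries with edgeR 4.0.16 under R 4.3.3: low counts removed by filterByExpr, TMM factors, quasi-likelihood test, Benjamini-Hochberg adjustment and a threshold of 0.05. Treatment over all intervals, interaction and interval were tested on all 56 libraries. DESeq2 1.42.0 served as an alternative. CPM used TMM factors over all libraries, log2 CPM a prior count of 2, and log2 ratios 0.5 added to each count. SE was derived from the fold change and the F statistic. Permutation tests used scipy 1.17.1, tables pandas 2.3.3 and figures matplotlib 3.10.9.

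The members, lists and tests were chosen with earlier results of these data known. The miRNAs named are the 3 members, the 5 most alike to each by rho over 55 libraries, and the marker lists, with miR-6215 and miR-293-5p added after their values were seen. The minimum of 200 counts of miR-183-5p was set after the data were seen. The fits of TBI against sham were tested on simulated counts with a dispersion of 0.04. There each comparison called 27 to 30 of 30 miRNAs given a log2 change of 2 (29 of 30 at 2 w, with 225 tested) and 27 to 30 of 30 given a change of 1. Every simulated miRNA had the same dispersion, whereas the members had a within-group SD of log2 CPM of 1.35, 1.19 and 1.16. The simulation therefore does not show what change would be called for miRNAs as variable as the members. Each library is 1 rat, so p-values measure the spread between rats. No 2 libraries of a group were alike within sampling noise (chi-square over its degrees of freedom at least 17.2 in 84 pairs). Only at 12 m do sham and TBI libraries share S numbers, and there the deviations of same-numbered libraries had r between -0.17 and 0.33, so the numbers were not taken as pairs.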

Additional observations from a re-analysis of the deposited data

Results flagged for a closer look

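In 3 of 78 groups of 4 values a rat lay far from the other 3 by Dixon's test, where chance flags about 1 in 20 groups, or 3.9 here. The ratio of miR-183-5p to miR-182 was 0.428 in rat X769 (TBI 1 m) against 1.03 to 1.14 in the other 3, and its ratio of miR-96-5p to miR-182 was 0.0341 against 0.144 to 0.191. Both ratios share the 381 counts of miR-182 in that library, which had 163 of miR-183-5p and 13 of miR-96-5p. In rat X78A (sham 3 m) the ratio of miR-183-5p to miR-182 was 1.125, against 0.399 to 0.443 in the other 3 rats of that group, 2 of which were high in miR-204-5p.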

How the results depend on the processing

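Apart from leaving out single rats, 358 values were recomputed under other settings, of which 305 counted as unchanged, 27 moved, 21 changed sign and 5 passed the threshold only there. Fold changes, differences and p-values counted as unchanged when direction and side of the threshold held. A rank had to be equal, a count of calls close to the main count, and an SD or correlation within its standard error. Ranks, counts, SDs and correlations beyond these limits are those that moved. The cause of these changes was not tested. At 2 w the likelihood ratio test called all members (log2 fold changes -2.98, -2.74 and -2.43 for miR-183-5p, miR-96-5p and miR-182), and the DESeq2 Wald test the first and second (-2.99 and -2.76). DESeq2 gave no adjusted p for miR-183-5p at 24 h or for any member at 12 m. With the likelihood ratio test 8 of 227 miRNAs were called at 2 w, 5 of 240 at 1 m and 2 of 236 at 2 m. The Wald test called 7, 5 and 1 there and 1 of 220 at 3 m. A fit of all 56 libraries called 8 miRNAs at 24 h, 4 at 2 w, 37 at 1 m and 2 at 2 m. Without the filter 2 were called at 1 m, scaling by total count left 5 over all intervals, and the DESeq2 likelihood ratio test called 11 for the interaction.

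Values near 0 changed sign. For miR-183-5p at 1 m they were -0.0030 with DESeq2 size factors, -0.037 with the total count, -0.046 without the filter, -0.00043 with the likelihood ratio test, -0.0088 with the Wald test and -0.047 in the fit of all libraries. At 2 m they were 0.0067, 0.021 (no filter), 0.00050, 0.0050 and 0.015, with DESeq2 size factors first and the last 3 in the same order as before. The total count gave -0.15 for miR-96-5p at 2 m. Without the 3 rats high in miR-204-5p, a setting chosen after seeing the data, the change over all intervals was -0.015 for miR-183-5p and 0.057 for miR-182. The S number as a block at 12 m (replicate block) gave 0.21, 1.00 and 0.38 for the members with adjusted p of 0.974, 0.590 and 0.737 and 0 calls.

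miR-183-5p ranked 1 by spread with the total count, or with at least 10 counts in every library, where miR-182 ranked 2. For miR-183-5p and miR-96-5p r was 0.850 with all 56 libraries, 0.869 without the 2 farthest, 0.861 in sham and 0.931 in TBI. It was 0.917 for miR-183-5p and miR-182 without the 2 farthest, and for miR-96-5p and miR-182 0.792 with all and 0.862 without those 2. With at least 20 counts of each member the SD of the log2 ratios was 0.459 (miR-183-5p over miR-182), 0.406 (miR-96-5p over miR-182) and 0.400 (miR-96-5p over miR-183-5p), and the differences were 0.22 at 1 m, 0.052 at 12 m and 0.13 over all intervals for miR-183-5p over miR-182, and -0.13 at 2 m for miR-96-5p over miR-183-5p. Adding 2 to each count gave 0.043 at 2 m and 0.037 overall for miR-96-5p over miR-182, and 0.038 overall for miR-96-5p over miR-183-5p.

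Leaving out 1 rat at a time gave these ranges, from the lowest to the highest value. The log2 fold change of miR-183-5p was -1.31 to 1.48 at 24 h, -3.34 to -1.89 at 2 w, -0.43 to 0.63 at 1 m, -0.19 to 0.12 at 2 m, -2.11 to 0.62 at 3 m, 0.78 to 1.76 at 6 m, -0.95 to 2.15 at 12 m and -0.37 to 0.22 over all intervals. The difference of its mean log2 CPM was -0.87 to 0.63 (24 h), -2.93 to -1.50 (2 w), -0.25 to 0.74 (1 m), -0.21 to 0.021 (2 m), -1.54 to -0.0004 (3 m), 0.70 to 1.69 (6 m) and -0.996 to 0.92 (12 m). The log2 fold change of miR-96-5p was -0.40 to 0.91 at 24 h, -3.09 to -1.44 at 2 w, -0.60 to 0.22 at 1 m, -0.068 to 0.24 at 2 m, -2.68 to -0.23 at 3 m, -0.73 to 2.75 at 12 m and -0.53 to 0.15 over all intervals. The difference of its mean log2 CPM was -0.44 to 0.47 (24 h), -2.44 to -1.19 (2 w), -0.55 to 0.094 (1 m), -1.19 to 0.055 (2 m), -2.07 to -0.73 (3 m), 0.39 to 1.32 (6 m) and -0.36 to 1.38 (12 m). The log2 fold change of miR-182 was -0.57 to 1.21 at 24 h, -2.78 to -1.15 at 2 w, -0.040 to 0.74 at 1 m, 0.068 to 0.55 at 2 m, -2.35 to -0.87 at 3 m, 0.072 to 0.99 at 6 m, -1.15 to 2.25 at 12 m and -0.42 to 0.11 over all intervals. The difference of its mean log2 CPM was -0.33 to 0.78 (24 h), -2.29 to -0.90 (2 w), 0.0022 to 0.71 (1 m), 0.24 to 0.72 (2 m), -2.14 to -1.12 (3 m), 0.04 to 0.89 (6 m) and -0.70 to 0.95 (12 m). The difference of the log2 ratio miR-183-5p over miR-182 was -0.55 to -0.15 (24 h), -0.64 to -0.48 (2 w), -0.26 to 0.22 (1 m), -0.62 to -0.22 (2 m), 0.58 to 1.13 (3 m), 0.36 to 0.93 (6 m), -0.45 to 0.032 (12 m) and -0.067 to 0.031 (all). The difference of the log2 ratio miR-96-5p over miR-182 was -0.28 to 0.23 (24 h), -0.49 to -0.16 (2 w), -0.92 to -0.10 (1 m), -0.45 to -0.15 (2 m), -0.019 to 0.38 (3 m), 0.26 to 0.86 (6 m), 0.24 to 0.63 (12 m) and -0.077 to 0.045 (all). The difference of the log2 ratio miR-96-5p over miR-183-5p was -0.13 to 0.47 (24 h), 0.066 to 0.42 (2 w), -0.71 to -0.32 (1 m), -0.0064 to 0.31 (2 m), -0.93 to -0.33 (3 m), -0.52 to 0.25 (6 m), 0.39 to 0.79 (12 m) and -0.068 to 0.042 (all). The number of miRNAs called was 2 to 5 (24 h), 0 to 6 (2 w), 1 to 7 (1 m), 0 to 2 (2 m), 0 to 0 (3 m), 0 to 0 (6 m), 0 to 1 (12 m), 4 to 15 (all), 5 to 18 (interaction) and 122 to 154 (interval effect). The rats behind the widest changes in the members were X460 at 24 h, tube.18 at 2 w, X62 at 3 m, tube.58 at 6 m and X83 at 12 m.

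The depth of 69628 counts in rat X747 did not allow the low members to be seen there, and miR-96-5p, with a median of 26 counts, had the widest counting error.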
